A study of Mus musculus with 15 samples.

Results

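The transcripts of 8 transcription factor genes that the circadian clock controls, Dbp, Tef, Hlf, Nfil3, Bhlhe40, Bhlhe41, Ciart and Rora, were followed in quadriceps muscle of 15 mice. The genes were taken as a named list, matched by Ensembl identifier to gene symbol, and all 8 were counted in every mouse, among 39179 genes in all. All mice were of the C57BL/6 strain. At 3 mo there were 4 wild-type and 4 V338Y mice, and at 19 mo 3 wild-type and 4 V338Y mice. V338Y mice are homozygous for an amino acid exchange in Mrps5, a protein of the mitochondrial ribosome, an exchange known to raise misreading during mitochondrial protein synthesis. No group was given an agent, and the wild-type mice carry the unchanged Mrps5 gene. Each library came from the RNA of 1 mouse.

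In most cells a loop of transcription factors keeps time. The activators Arntl (Bmal1) and Clock bind E-boxes, short motifs with the letters CACGTG, and switch on their own repressors, the Per and Cry genes, together with a layer of output factors. The output factors carry the rhythm further. Dbp, Tef and Hlf are related bZIP proteins of the PAR family that activate genes through D-boxes, and Nfil3 (E4bp4) represses through the same motif. Bhlhe40 (Dec1) and Bhlhe41 (Dec2) bind E-boxes as repressors, and Ciart (Chrono) represses Arntl and Clock. Rora is a nuclear receptor that activates Arntl through the element that the Rev-erb receptors Nr1d1 and Nr1d2 repress. Levels of Dbp, and to a lesser degree of the others, rise and fall within each day in muscle and liver. The hour at which the mice were killed is not given in the sources used here, so a difference in hour and a difference in age or genotype cannot be told apart for any of these genes.

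Arntl and Clock act through E-boxes, so the sequence around each CACGTG in the promoters of the members is shown before their values. A match of the letters does not show that these factors act on the gene. RefSeq promoters (assembly GRCm38.p6) were found for 7 of the 8 genes, with 2 for Tef and none for Bhlhe40. In the 250 bases before the annotated start, on either strand, CACGTG was present for 3 of the 7 genes, Ciart, Bhlhe41 and Tef, against 6.02% of 32851 promoters in the table. Here and below a gene counts if any of its promoters holds the letters, while the shares are of single promoters. Ciart held 3 copies, which 0.0609% of all promoters reach. Their first bases lie 116, 58 and 44 bases before the start, the second and the third 14 bases apart. The stretch that holds all 3 copies, 102 bases long at chr3:95882255-95882356 on the minus strand and before the annotated gene, is printed 5′ to 3′ with the E-boxes in capitals.

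Ciart: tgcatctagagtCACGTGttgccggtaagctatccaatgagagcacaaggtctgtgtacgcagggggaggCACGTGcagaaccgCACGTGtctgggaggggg

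The other copies are printed in the same way within 30 bases of their own strand. The Bhlhe41 site lies 153 bases before the start, at chr6:145865556-145865585 on the minus strand, before the gene. The first Tef site lies 127 bases before the start of the first RefSeq promoter, at chr15:81802534-81802563 on the plus strand, where a longer GENCODE transcript has an untranslated exon. The second Tef site lies 138 bases before the start of the other promoter, at chr15:81811264-81811293, in an intron of that longer transcript.

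Bhlhe41: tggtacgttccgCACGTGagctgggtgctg
Tef, first promoter: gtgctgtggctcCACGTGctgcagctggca
Tef, second promoter: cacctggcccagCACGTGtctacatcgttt

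The D-box in the forms TTATGTAA and TTATGCAA was found in 0 of the 7 genes and in 1.5% of all promoters. The half-site AGGTCA, to which Rora binds, was found in 1 of the 7, Nfil3, and in 14% of all promoters. These are matches of letters in a short window and say nothing of sites elsewhere in these genes, whose control regions also lie in introns and at a distance.

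Between 8250653 and 18968132 counts per mouse were assigned to genes. Counts of a mouse were scaled by its total and by a TMM factor, which corrects for differences in composition, to CPM, counts per 1000000 of this scaled total. Mrps5 itself was at 14.96 to 27.5 CPM in all mice, and at 19 mo its level did not differ past the threshold between V338Y and wild-type mice (log2 fold change 0.0059). The exchange is not visible in gene counts. The methods name female mice for both groups at 3 mo and for wild-type mice at 19 mo. The 3 mo libraries held 163 to 202 CPM of Ddx3y, from the Y chromosome, and at most 0.575 CPM of Xist. The 19 mo libraries held 506 to 631 CPM of Xist and at most 0.0827 CPM of Ddx3y. Age and sex therefore cannot be told apart in any comparison of the ages, while the genotypes compared at 1 age had like levels of these transcripts. The summed level of 8 muscle fibre markers was 126138 to 147080 CPM at 3 mo, 87474 to 133831 CPM in wild-type and 70371 to 115782 CPM in V338Y mice at 19 mo, led by Myh4, so the tissue label holds. V338Y mouse 5 at 19 mo stood apart in 5 neutrophil markers, with 545 CPM in sum against 0 to 24.2 CPM in the other mice.

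Compared per length, as CPM per kb of exon, Tef had the highest level of the 8 genes in every group. In 3 mo wild-type mice the mean levels were 38.0 for Tef, 26.4 for Rora, 23.5 for Dbp, 11.5 for Nfil3, 11.1 for Bhlhe40, 4.23 for Bhlhe41, 2.78 for Ciart and 1.51 CPM per kb for Hlf. Rora and Dbp overlapped between mice, as did Nfil3 and Bhlhe40, and Ciart and Hlf. The genes were measured in the same mice, so overlap of the ranges does not show that 2 genes are alike, and their order was not tested. In 3 mo V338Y mice Ciart, at 2.19 to 3.88, lay above Hlf, at 1.26 to 1.52 CPM per kb, without overlap. In 19 mo wild-type mice the order was Tef (20.9), Rora (20.8), Nfil3 (19.1), Bhlhe40 (14.2), Bhlhe41 (3.03), Dbp (2.83), Hlf (0.998) and Ciart (0.504 CPM per kb). Dbp went from the third to the sixth place, and its level per kb in the 19 mo mice overlapped with that of Bhlhe41. Tef, Rora and Nfil3 overlapped with each other at 19 mo.

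The main difference was between the ages, which cannot be told apart from sex or from the hour of killing. Of the 8 genes, 5 were down-regulated and 2 up-regulated at 19 mo in wild-type mice with an edgeR adjusted p under 0.05, while 17.8% of all 13657 tested genes were down-regulated and 18.3% up-regulated. In V338Y mice 6 were down-regulated and 0 up-regulated, against 22.5% and 24.4% of 13868 tested genes. Ciart passed the filter in V338Y mice only through the 3 mo group, and of the other 7 genes 5 fell. Dbp, Tef, Hlf, Ciart and Rora fell in both genotypes. Over the 8 genes the log2 fold change had a median of -0.53 in wild-type and one of -0.95 in V338Y mice, beside 0.019 and 0.072 over all tested genes. Without Ciart the medians were -0.47 and -0.89. Dbp and Ciart were the members with the largest changes, ranking 175 and 227 by size among all genes tested in wild-type mice and 147 and 116 in V338Y mice. In bulk muscle, fewer cells of one type and less RNA per cell cannot be told apart.

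**Figure D1:**
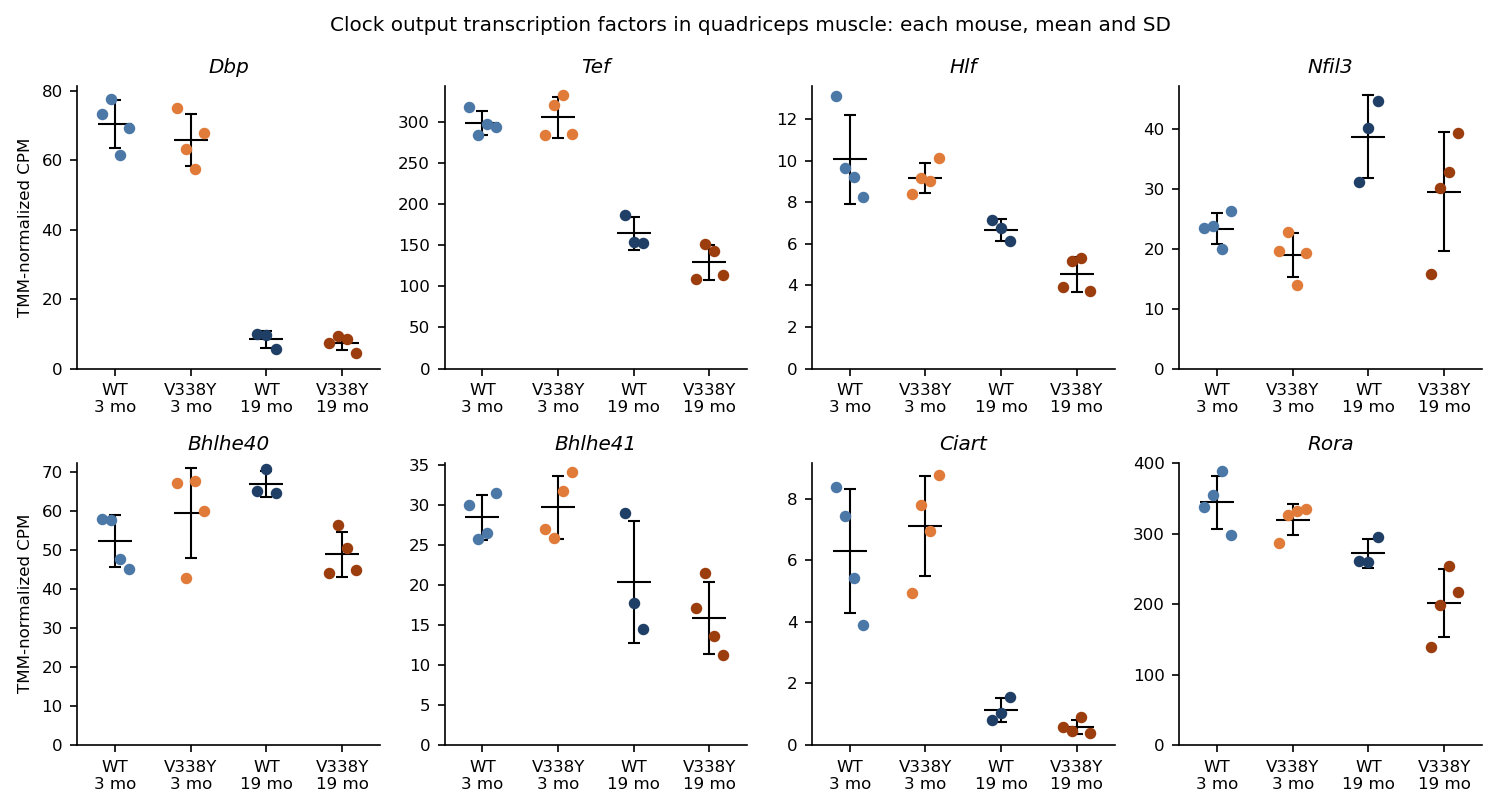
TMM-normalized CPM of the 8 genes (vertical axes, each from 0) in each mouse (points) of the 4 groups, with the mean (line) and SD (bars). All 19 mo mice lie at or under 10.0 CPM for Dbp and all 3 mo mice at or above 57.4 CPM, whereas for Bhlhe40 the 3 mo and 19 mo V338Y mice overlap.

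Dbp, the PAR factor with the strongest daily rhythm in most tissues (ENSMUSG00000059824, GRCm38 chromosome 7 from 45705088 to 45710203, plus strand), had 73.3, 77.7, 61.5 and 69.3 CPM in the 3 mo wild-type mice. In the 3 mo V338Y mice it had 75.1, 63.3, 57.4 and 67.9 CPM. The 19 mo wild-type mice had 10.0, 9.78 and 5.63 CPM and the 19 mo V338Y mice 7.41, 9.25, 8.43 and 4.37 CPM. Every 19 mo mouse was below every 3 mo mouse by a wide margin, and the genotypes overlapped at both ages. Dbp fell 8.24-fold with age in wild-type mice (log2 fold change -3.04, standard error, SE, 0.19, edgeR adjusted p = 3.72e-05). In V338Y mice it fell 8.90-fold (SE 0.21 on the log2 scale, edgeR adjusted p = 1.82e-05).

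Tef (ENSMUSG00000022389, chromosome 15 from 81802421 to 81826863, plus strand) binds the same D-boxes and is known for a shallower rhythm. It had 319, 284, 298 and 294 CPM in wild-type and 284, 321, 333 and 285 CPM in V338Y mice at 3 mo. At 19 mo the wild-type mice had 187, 153 and 152 CPM and the V338Y mice 109, 152, 143 and 114 CPM. The ages did not overlap in either genotype. At 19 mo each V338Y mouse lay below each wild-type mouse in TMM-scaled CPM, the nearest by less than 1 CPM. Tef fell 1.82-fold in wild-type mice (log2 fold change -0.86, SE 0.10, edgeR adjusted p = 0.000516) and 2.34-fold in V338Y mice (-1.23, SE 0.13, edgeR adjusted p = 0.000159).

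Hlf (ENSMUSG00000003949, chromosome 11 from 90336536 to 90390895, minus strand), the member of the family with the lowest level in this muscle, had 13.1, 9.65, 9.22 and 8.25 CPM in wild-type and 8.39, 9.15, 9.02 and 10.1 CPM in V338Y mice at 3 mo. At 19 mo it had 7.15, 6.74 and 6.12 CPM in wild-type and 3.91, 5.16, 5.32 and 3.73 CPM in V338Y mice. All 19 mo mice lay below the 3 mo mice of their genotype. Hlf fell 1.501-fold in wild-type mice (edgeR adjusted p = 0.0267) and 2.005-fold in V338Y mice (edgeR adjusted p = 0.000851). The call in wild-type mice was lost without 19 mo mouse 4 (adjusted p = 0.0688) or mouse 5 (adjusted p = 0.0673).

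Nfil3, which represses through the D-box (ENSMUSG00000056749, chromosome 13 from 52967209 to 52981073, minus strand), rose with age in wild-type mice. It had 23.4, 23.8, 19.9 and 26.3 CPM in 3 mo wild-type and 31.1, 40.2 and 44.7 CPM in 19 mo wild-type mice, with no overlap. The log2 fold change was 0.73 (SE 0.14, edgeR adjusted p = 0.00432), a 1.66-fold rise. V338Y mice had 19.5, 22.8, 13.9 and 19.2 CPM at 3 mo and 15.8, 30.1, 32.7 and 39.3 CPM at 19 mo. One 19 mo V338Y mouse, mouse 2, lay within the 3 mo range and the other 3 above it. The log2 fold change in V338Y mice was 0.66 (SE 0.25), which just missed the threshold with an edgeR adjusted p of 0.0503. Without mouse 2 it was 0.87 with an adjusted p of 0.00433.

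The levels of the 3 PAR factors and of Nfil3 were set beside each other per kb of exon in each mouse. The sum of Dbp, Tef and Hlf was 59.8 to 66.9 CPM per kb in 3 mo wild-type and 60.4 to 63.3 CPM per kb in 3 mo V338Y mice. At 19 mo it was 22.2 to 28.2 in wild-type and 16.6 to 23.2 CPM per kb in V338Y mice. The ratio of this sum to Nfil3 was 4.76 to 6.09 and 5.63 to 9.16 at 3 mo, and 1.01 to 1.84 and 0.853 to 2.16 at 19 mo, so that the ages did not overlap in either genotype. Within the sum, the share of Dbp was 34.4% to 40.8% in 3 mo and 8.48% to 13.7% in 19 mo wild-type mice. In V338Y mice it was 30.5% to 40.2% and 8.82% to 14.7%. Tef made up nearly all of the rest, with 82.0% to 87.4% of the sum in 19 mo wild-type mice. These are transcript levels, and the amounts of the proteins were not measured.

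**Figure D2:**
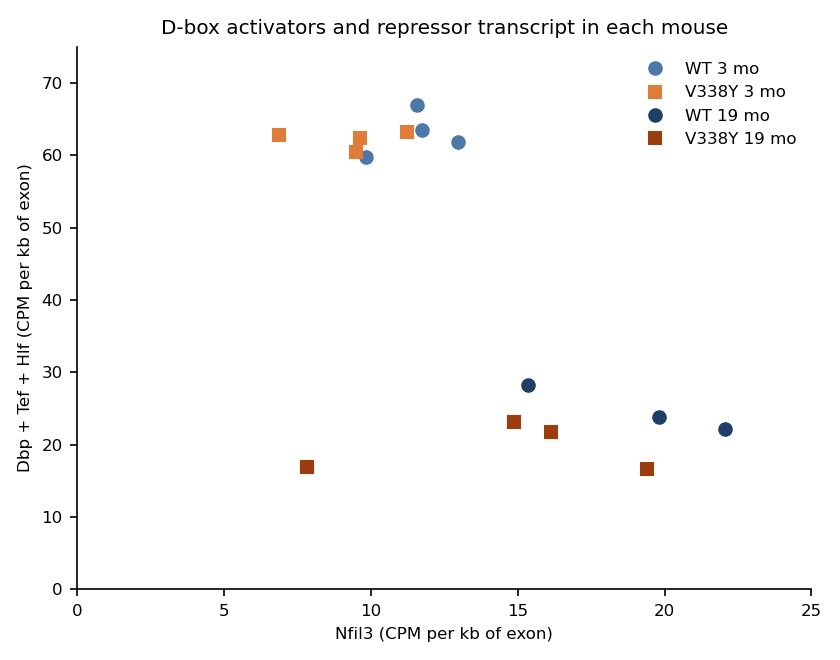
Summed level of Dbp, Tef and Hlf (vertical axis) against the level of Nfil3 (horizontal axis), both in TMM-normalized CPM per kb of exon, 1 point per mouse, with circles for wild-type and squares for V338Y. The 8 mice at 3 mo lie at 59.8 to 66.9 on the vertical axis and the 7 mice at 19 mo at 16.6 to 28.2, and 1 V338Y mouse at 19 mo has 7.81 CPM per kb of Nfil3.

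Of the E-box repressors, Ciart had the largest age difference (ENSMUSG00000038550, chromosome 3 from 95878503 to 95882251, minus strand). It is the gene with 3 E-boxes in the stretch printed above. The 3 mo wild-type mice had 8.39, 7.45, 5.44 and 3.90 CPM and the 3 mo V338Y mice 4.94, 7.82, 6.95 and 8.76 CPM. The 19 mo wild-type mice had 0.808, 1.04 and 1.57 CPM, and the 19 mo V338Y mice had 0.601, 0.469, 0.904 and 0.386 CPM. The ages did not overlap in either genotype. Ciart fell 5.58-fold in wild-type mice (log2 fold change -2.48, SE 0.34, edgeR adjusted p = 0.000923) and 12.2-fold in V338Y mice (-3.61, SE 0.30, edgeR adjusted p = 5.81e-05). The 19 mo values rest on 13 to 19 counts per wild-type and 6 to 9 counts per V338Y mouse. In V338Y mice the gene passed the filter of 10 counts only through the 3 mo group, where it is high, and among the 19 mo mice only through the wild-type group.

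Bhlhe41 (ENSMUSG00000030256, chromosome 6 from 145858243 to 145865558, minus strand) had 30.0, 25.8, 26.4 and 31.5 CPM in 3 mo wild-type and 27.0, 25.8, 31.8 and 34.1 CPM in 3 mo V338Y mice. At 19 mo it had 28.9, 17.7 and 14.5 CPM in wild-type and 17.1, 21.5, 13.7 and 11.2 CPM in V338Y mice. Wild-type mouse 2 at 19 mo lay within the 3 mo range, while all 19 mo V338Y mice lay below it. In V338Y mice the log2 fold change was -0.89 (SE 0.19, edgeR adjusted p = 0.00428). In wild-type mice it was -0.47 (SE 0.21) and missed the threshold with an edgeR adjusted p of 0.106. Without wild-type mouse 2 it was -0.82 with an adjusted p of 0.00333.

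Bhlhe40 (ENSMUSG00000030103, chromosome 6 from 108660629 to 108666925, plus strand), the paralog of Bhlhe41, had 58.1, 57.9, 47.9 and 45.2 CPM in 3 mo and 65.2, 71.0 and 64.8 CPM in 19 mo wild-type mice. All 19 mo wild-type mice were above the 3 mo ones, by a log2 fold change of 0.36 (SE 0.11, edgeR adjusted p = 0.0315). V338Y mice had 67.2, 42.9, 67.8 and 60.2 CPM at 3 mo and 44.1, 56.4, 50.5 and 44.9 CPM at 19 mo. Here the ages overlapped through mouse 2 at 3 mo, and the log2 fold change was -0.27 (SE 0.15, edgeR adjusted p = 0.161). Without that mouse it was -0.40 with an adjusted p of 0.0245. The rise in wild-type mice was small, and its adjusted p rose to 0.0827 without 3 mo mouse 3, 0.0689 without 3 mo mouse 4, 0.0531 without 19 mo mouse 2, 0.120 without 19 mo mouse 4 and 0.0504 without 19 mo mouse 5. Per kb, Bhlhe40 stood at 2.05 to 3.21 times Bhlhe41 in 3 mo wild-type mice and at 3.22 to 6.40 times in 19 mo wild-type mice. In V338Y mice the ratio was 2.37 to 3.55 and 3.68 to 5.74.

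Rora, the activating nuclear receptor (ENSMUSG00000032238, chromosome 9 from 68653786 to 69388246, plus strand), had 337.96, 354, 389 and 299 CPM in 3 mo wild-type and 287, 327, 332 and 335 CPM in 3 mo V338Y mice. At 19 mo it had 261, 260 and 296 CPM in wild-type and 138, 198, 255 and 217 CPM in V338Y mice. The ages did not overlap in either genotype, but the nearest wild-type mice of the 2 ages were 296 and 299 CPM. The log2 fold change was -0.34 in wild-type (SE 0.11, edgeR adjusted p = 0.0395) and -0.65 in V338Y mice (SE 0.17, edgeR adjusted p = 0.0112). In wild-type mice the call was lost without any 1 of 5 mice, with adjusted p of 0.0692, 0.0799 and 0.101 without 3 mo mice 1, 2 and 3, and 0.0841 and 0.117 without 19 mo mice 2 and 4. Without V338Y mouse 2 at 19 mo, which had the lowest level, the log2 fold change in V338Y mice was -0.51 with an adjusted p of 0.0122.

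In wild-type mice, leaving out any 1 mouse lowered the number of members called from 7 to between 4 and 6, and in V338Y mice the number stayed between 6 and 7. The number of 4 came without wild-type mouse 4 at 19 mo. Dbp, Tef and Ciart passed the threshold in every one of these fits in both genotypes. Markers of other cells of the tissue also differed between the ages. The 5 macrophage markers summed to 66.3 to 117 CPM at 3 mo and 96.9 to 151 CPM at 19 mo, and the 5 endothelial markers to 132 to 177 and 190 to 328 CPM. Of 5 fibroblast markers, 1 rose and 2 fell in wild-type mice, and 0 rose and 2 fell in V338Y mice. All 5 adipocyte markers lay below 0 in wild-type mice, 2 of them past the threshold. In V338Y mice all 5 lay above 0, 1 of them past it. Of 5 Schwann cell markers, 2 rose in wild-type and 5 in V338Y mice. Shares of all genes follow. Of the 8 muscle fibre markers, 1 rose and 2 fell with age in wild-type mice, where 18.3% and 17.8% of all genes did. In V338Y mice 0 rose and 4 fell, where 24.4% and 22.5% did. Ckm and Tnnt3 were the 2 that fell in both genotypes. Myh7 passed the threshold upwards in wild-type mice only, and Myh1, Myh2 and Myh7 lay above 0 in both genotypes. The part of these differences in the result was not tested.

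**Figure D3:**
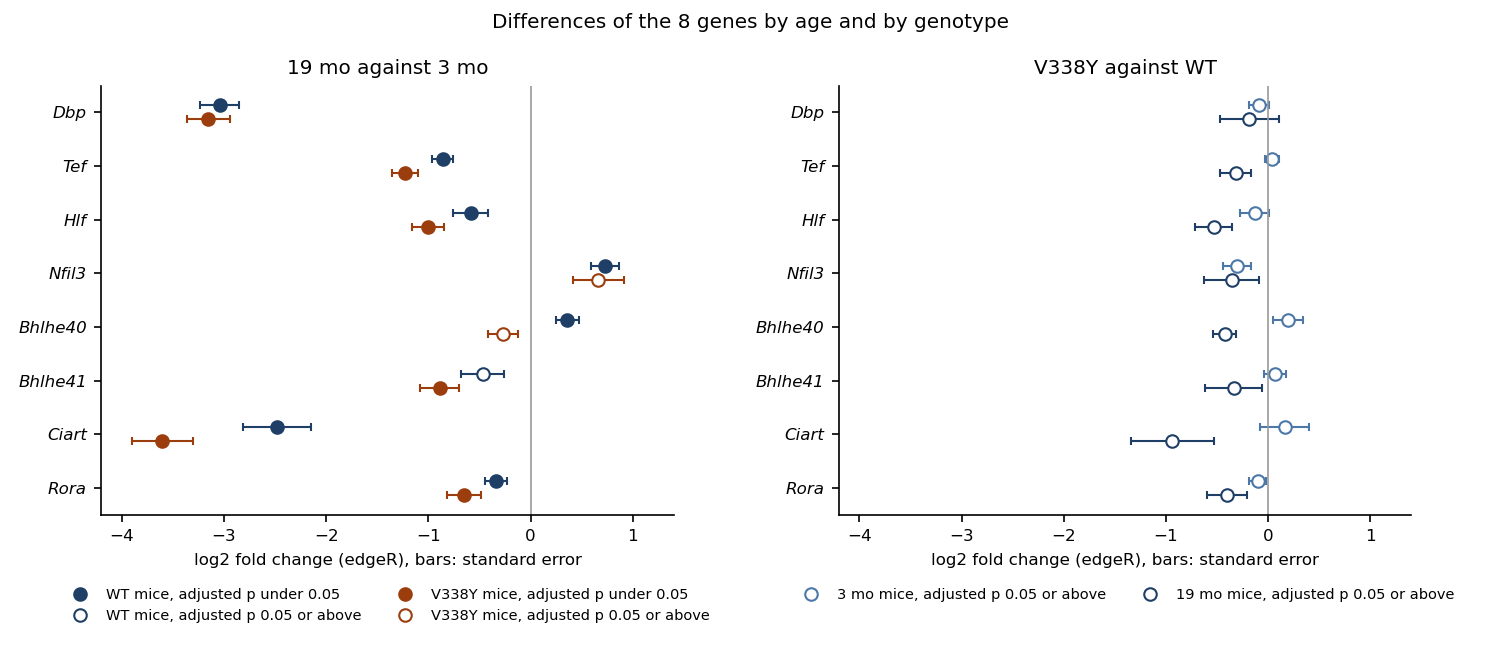
Log2 fold change of the 8 genes (horizontal axes, edgeR) with age in wild-type and V338Y mice (left) and of V338Y against wild-type mice at 3 mo and 19 mo (right). Bars are standard errors and filled points have an adjusted p under 0.05. On the left the points of Dbp and Ciart lie below -2, and on the right every point is open.

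The question whether the V338Y exchange changes these factors was put at each age. At 3 mo, 0 of the 8 genes differed between the genotypes with an edgeR adjusted p under 0.05, where 0.075% of 13333 tested genes did. With an unadjusted edgeR p under 0.05 there were also 0 of 8, against 9.7% of all genes, and DESeq2 called 0 of 8. The log2 fold changes ran from -0.30 for Nfil3 (SE 0.14, edgeR adjusted p = 0.519) to 0.19 for Bhlhe40 (SE 0.14, edgeR adjusted p = 0.712). For Dbp the difference was -0.091 with an SE of 0.10, and for Tef 0.036 with an SE of 0.072, the most precise of the 8. The genotypes overlapped for all 8 genes at 3 mo.

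At 19 mo, 0 of the 8 genes passed an edgeR adjusted p under 0.05, where 0.0434% of 13833 genes did, and DESeq2 called 0 of 8. All 8 log2 fold changes were below 0, as were 48.4% of those of all genes, and their median was -0.38 beside 0.0080 over all genes. Bhlhe41 was above 0 (0.011) without wild-type mouse 2, and Dbp was above 0 (0.0095) without V338Y mouse 5, the mouse high in neutrophil markers. Ciart passed the filter at 19 mo only through the wild-type mice, where it is high, and had to differ in that direction. Among the other 7 genes the median was -0.36, and 2, Hlf and Bhlhe40, were lower with an unadjusted edgeR p under 0.05, as were 2.75% of all genes. In TMM-scaled CPM, Tef, Hlf, Bhlhe40 and Rora had all V338Y values below all wild-type values, and 5.28% of all genes had such groups. For Bhlhe40 the wild-type mice were at 64.8 to 71.0 CPM and the V338Y mice at 44.1 to 56.4 CPM, a log2 fold change of -0.43 (SE 0.11, edgeR adjusted p = 0.511). For Hlf it was -0.53 (SE 0.18, edgeR adjusted p = 0.537) and for Ciart -0.94 (SE 0.41, edgeR adjusted p = 0.557). Tef and Rora had -0.32 and -0.40, Nfil3 -0.36, Bhlhe41 -0.34 and Dbp -0.18. With V338Y mouse 5 left out, 0 of the 8 genes were called.

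Mice with the same number at 19 mo were treated as pairs in a further fit, though the titles state no shared litter or day. Deviations of such mice correlated across genes by 0.128 to 0.457, but wild-type mouse 2 with V338Y mouse 3 reached 0.574. The paired fit called 0.795% of all genes, 110 in place of 6. It called 0 of the 8 members. The lowest adjusted p among them was 0.0800 for Bhlhe40, with a log2 fold change of -0.49 (SE 0.10). The values by mouse above give 3 pairs, formed by mice 2, 4 and 5. In each pair, each of the 8 genes was lower in TMM-scaled CPM in the V338Y mouse. That is 24 of 24 gene and pair values, or 21 of 21 without Ciart, and 25.4% of all genes tested were lower in all 3 pairs. This count was made after the values were seen, the 8 genes of a mouse share its library, and no p is given for it. The 19 mo V338Y mice also had lower sums of muscle fibre markers than wild-type mice of the same number, 80303 against 133831, 89822 against 104533 and 70371 against 87474 CPM. The TMM factors of mice 2, 4 and 5 were 1.212, 1.192 and 1.128 in V338Y and 0.981, 1.055 and 1 in wild-type mice. They were thus higher in the V338Y mouse of each number, and a higher factor lowers the CPM. Only V338Y mouse 3, which is in no pair, lay within the wild-type range, at 1.026. Of total counts alone, Tef in mouse 4 had 1421 of 8368764 in V338Y and 2072 of 12806501 in wild-type. Rora in mouse 4 had 2536 and 3513 of the same totals. Both shares are larger in the V338Y mouse, so the 24 of 24 rests on the scaling. Of the 8 muscle fibre markers 3 had log2 fold changes above 0 (median -0.23), whereas all 5 adipocyte markers did (median 1.10, 1 with an unadjusted edgeR p under 0.05), as did all 5 macrophage (median 0.23), endothelial (0.19) and Schwann cell markers (0.48) and 4 of 5 fibroblast markers (0.40). All 5 neutrophil markers were also above 0 (median 6.75), each with an unadjusted edgeR p under 0.05, and 0 markers of these lists had an edgeR adjusted p under 0.05. Ltf, Ngp and Camp, with at most 4 counts in any 19 mo wild-type mouse, passed the filter only through the V338Y mice. There they are high, so they had to differ in that direction. Summed neutrophil markers were at 545 CPM in V338Y mouse 5, at 2.30 to 24.2 CPM in the other V338Y mice and at 2.07 to 4.30 CPM in wild-type mice. Summed adipocyte markers were at 154 to 867 CPM in V338Y and 140 to 280 CPM in wild-type mice. The part of these differences in the lower levels was not tested. Under RLE size factors and without the 10 most counted genes, each of the 8 differences at 19 mo kept its direction. Both settings still correct for composition, and a fit scaled by total counts alone was not run.

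Whether age, together with the sex that goes with it here, differed in its effect between V338Y and wild-type mice was tested as an interaction. The fit held all 15 mice. None of the 8 genes passed an edgeR adjusted p under 0.05, and 0% of the 14128 tested genes did. DESeq2 called 0 of the 8. All 8 interaction values were below 0, as were 51.7% of all genes, and Tef, Bhlhe40 and Ciart were below 0 with an unadjusted edgeR p under 0.05, as were 4.57% of all genes. The value was -0.64 for Bhlhe40 (SE 0.20, edgeR adjusted p = 0.405), which was higher with age in wild-type mice and not in V338Y mice. It was -1.14 for Ciart (SE 0.47, edgeR adjusted p = 0.484) and -0.38 for Tef (SE 0.17, edgeR adjusted p = 0.498). Nfil3 and Dbp had values of -0.075 and -0.12, with SEs of 0.32 and 0.29, and each turned above 0 when 1 of several mice was left out, up to 0.148 for Nfil3 without V338Y mouse 2 and 0.101 for Dbp without V338Y mouse 5 at 19 mo.

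The genes of the clock itself were compared with age in the same way. Of 14 core clock genes, 5 rose and 3 fell in wild-type mice and 6 rose and 3 fell in V338Y mice, where 18.3% and 24.4% of all genes rose and 17.8% and 22.5% fell. Arntl, Clock, Npas2, Per1 and Nr1d1 rose in both genotypes, and Per2, Per3 and Nr1d2 fell in both. Arntl, the activator of E-boxes, was at 16.05 to 18.4 CPM in 3 mo and 53.9 to 57.6 CPM in 19 mo wild-type mice (log2 fold change 1.71, SE 0.087, edgeR adjusted p = 1.29e-05). In V338Y mice it was at 15.4 to 21.0 and 34.0 to 51.7 CPM (log2 fold change 1.31, SE 0.14, edgeR adjusted p = 0.000171). Npas2, a partner of Arntl, rose from levels of at most 0.381 CPM, or 1 to 4 counts per mouse, to 4.11 to 6.49 CPM, and passed the filter only through the 19 mo mice. Per3, a repressor with its peak near that of Dbp in most tissues, fell by 1.21 in wild-type and by 1.44 in V338Y mice on the log2 scale. The direction of Dbp, Tef, Hlf and Ciart with age was thus that of Per2, Per3 and Nr1d2, and the direction of Nfil3 in wild-type mice that of Arntl. Per1 and Nr1d1, related to Per2, Per3 and Nr1d2, went the other way, with log2 fold changes of 1.37 and 1.21 in wild-type mice.

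**Figure D4:**
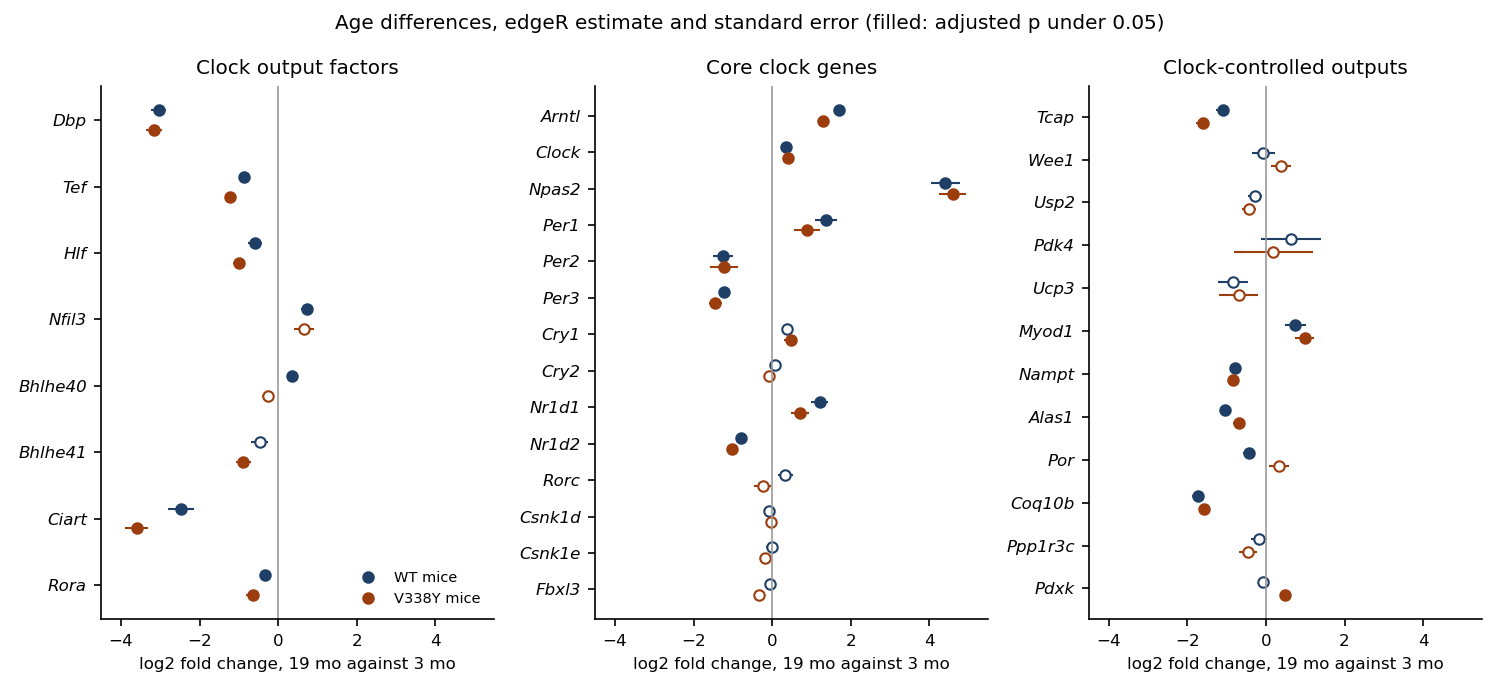
Log2 fold change of 19 mo against 3 mo mice (horizontal axes) with its standard error for the 8 output factors, 14 core clock genes and 12 clock-controlled output genes, in wild-type and V338Y mice. Filled points have an edgeR adjusted p under 0.05. Npas2 and Arntl lie to the right, and Dbp, Ciart, Per2, Per3, Coq10b and Tcap to the left in both genotypes.

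Of 12 further genes that follow the clock in muscle or other tissues, 1 rose and 5 fell with age in wild-type mice, where 18.3% and 17.8% of all genes did, and 2 rose and 4 fell in V338Y mice, where 24.4% and 22.5% did. Myod1, the myogenic regulator, rose in both genotypes, and Tcap, Nampt, Alas1 and Coq10b fell in both. Tcap, which encodes the titin cap of the sarcomere, was at 641 to 1900 CPM in all wild-type mice, with a log2 fold change of -1.10 (edgeR adjusted p = 0.00127) in wild-type and -1.61 (edgeR adjusted p = 0.000111) in V338Y mice. Coq10b had -1.74 (edgeR adjusted p = 9.65e-05) and -1.58 (edgeR adjusted p = 3.41e-05). Nampt, the enzyme of the NAD salvage pathway, had -0.78 and -0.85. Alas1, the first enzyme of heme synthesis, had -1.04 and -0.69.

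Signals other than the clock also set some of these genes, so lists of their targets were counted. Of 8 genes that respond to glucocorticoids, 1 rose and 2 fell with age in each genotype, beside the same shares of all genes. Zbtb16 rose and Tsc22d3 fell in both, while Fkbp5 had log2 fold changes of -0.56 and -0.54 that missed the threshold. Of 7 immediate-early genes tested, 3 rose and 0 fell in each genotype, beside the same shares, with Jun and Egr1 among them in both. Their sum was 89.4 to 123 CPM at 3 mo, 134 to 279 CPM in wild-type and 118 to 186 CPM in V338Y mice at 19 mo. At either age 0 genes of the core clock, output, glucocorticoid and immediate-early lists differed between the genotypes with an edgeR adjusted p under 0.05. With an unadjusted edgeR p under 0.05 there were 2 of 13 core clock genes at 3 mo and 3 of 14 at 19 mo, 2 and 1 of the 12 output genes, 4 and 0 of the 8 glucocorticoid genes and 1 and 0 of the 7 immediate-early genes. Of all genes 9.7% at 3 mo and 8.93% at 19 mo had such a p. Of the core clock genes, 13 of 14 were below 0 at 19 mo, as were 48.4% of all genes. In all 3 pairs of mice 8 of 14 were lower, as were 25.4% of all genes.

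Within groups the 8 genes varied to different degrees. The coefficient of variation between mice was 4.79% for Tef and 9.78% for Dbp in 3 mo wild-type mice, and 12.1% and 29.1% in 19 mo wild-type mice. Ciart had 22.9% to 38.5% in the 4 groups. For each gene the pattern of its deviations from the group means, on the scale of log2(CPM + 0.5), was set against that of 9458 genes over the 15 mice. The most similar were Ampd1 for Dbp (Pearson r = 0.934), Asb14 for Tef (0.949), Zfp160 for Hlf (0.893) and Gm20518 for Nfil3 (0.863). For Bhlhe40 it was Ints9 (0.913), for Bhlhe41 Mpp3 (0.954), for Ciart Egfr (0.875) and for Rora Mtmr1 (0.960). Between the members themselves r was 0.65 for Tef and Hlf, 0.65 for Dbp and Bhlhe41, 0.58 for Hlf and Ciart and 0.57 for Nfil3 and Rora. It was -0.51 for Nfil3 and Bhlhe41. These values describe 15 points, with the means of 4 groups removed, that share library and depth with the gene they are compared with. They are the highest or lowest of many.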

How the data were processed

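RNA of quadriceps muscle was sequenced by the authors on an Illumina instrument as single-end reads from stranded libraries. Per the labels and methods, reads were assigned to genes with RSEM, with STAR 2.4.2a, CASAVA 1.8 and bcl2fastq 1.8.4 named in the submitters' processing notes. The deposited values are expected counts per gene, given as whole numbers and without scaling. Reads that fit more than one gene are shared out by RSEM. The methods and the processing notes name different genome builds, and symbols, positions and exon lengths here come from GENCODE M21 on GRCm38, with 37607 of 39179 genes matched. Of 21 pairs of mice within groups, 0 held identical counts, and chi-square divided by its degrees of freedom ran from 5.47 to 101. The labels do not give batches. P-values measure the spread between the mice.

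The filter followed the study: a gene needed 10 or more counts in 50% or more of the mice of either group. Counts were compared with edgeR 4.0.16 (quasi-likelihood test, TMM) in R 4.3.3 in a fit of the groups compared, and p-values adjusted by the Benjamini-Hochberg method over all genes tested. A gene was called at an adjusted p under 0.05, and CPM are per 1000000 of the TMM-scaled total. Log2 fold changes and standard errors are from the same fit. Alternatives were RLE size factors, DESeq2 1.42.0, no filter, filterByExpr, TMM without the 10 most counted genes, a fit of all 15 mice, the mouse number as a replicate block, and each mouse left out in turn. Code was tested on simulated data. Named genes were the 8 members, up to 3 genes per list and comparison with the smallest adjusted p together with counts over each list, Mrps5, Xist and Y-linked genes, and the genes most similar to each member. Other list genes named beside counts, such as Nampt and Fkbp5, were chosen after their values were seen. The members and lists were chosen with earlier results of these data known.

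Mouse numbers recur between groups. At 19 mo the deviations of the 3 same-numbered pairs of V338Y and wild-type mice correlated across genes by 0.128 to 0.457 (mean 0.317). The 9 other pairs ran from -0.485 to 0.574 (mean -0.101), the highest for wild-type mouse 2 with V338Y mouse 3. The same-numbered mice were taken as paired, which these values do not settle. The pairing comes from the numbers in the titles, which state no shared litter or day.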

Additional observations from a re-analysis of the deposited data

Results flagged for a closer look

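Rora was at 287 CPM in V338Y mouse 1 at 3 mo, while the other 3 mice of the group had 327 to 335 CPM. The gap to the nearest mouse was 0.832 of the range of the group, just above the limit of Dixon's test for 4 mice. Of 24 groups of 4 mice and genes tested in this way, 1 was set apart, and chance sets apart about 1 in 20. The mouse had the deepest library, with 18968132 counts.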

How the results depend on the processing

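Calls of the members held under RLE size factors, DESeq2, filterByExpr and without the 10 most counted genes, except that Nfil3 in V338Y mice passed the threshold with age under filterByExpr (adjusted p = 0.0441), DESeq2 (0.0327), no filter (0.0441) and a fit of all 15 mice (0.0222). In wild-type mice Bhlhe40 lost its call with age without a filter (adjusted p = 0.0538) and, with Rora (0.108), in the fit of all 15 mice (0.0630). With each mouse left out in turn, 4 to 6 members (4 without 19 mo mouse 4) and 3431 to 4837 genes were called with age in wild-type mice, 6 to 7 members and 5182 to 6448 genes with age in V338Y mice, and 0 members between the genotypes and in the interaction, with 3 to 14 genes at 3 mo, 2 to 7 at 19 mo and 0 in the interaction. Without a filter 33, 14 and 5 genes, and with DESeq2 66, 62 and 26 genes, were called at 3 mo, at 19 mo and in the interaction. The causes were not tested.

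With a replicate block for the mouse number, 3 members (Dbp, Tef and Ciart) and 2229 genes were called with age in wild-type mice, 110 genes at 19 mo and 28 genes in the interaction. Same-numbered mice correlated by 0.0022 to 0.067 between the ages in wild-type mice (2 pairs), by -0.166 to 0.0019 in V338Y mice (3 pairs) and by -0.049 to 0.163 between the genotypes at 3 mo (4 pairs). They were not taken as paired there. The block changed no other call of a member.

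Some differences changed sign when a mouse was left out. At 3 mo between the genotypes the log2 values ran from -0.21 to 0.016 for Hlf, -0.0045 to 0.32 for Ciart, -0.0054 to 0.072 for Tef and -0.0067 to 0.13 for Bhlhe41. At 19 mo they ran from -0.53 to 0.011 (without wild-type mouse 2) for Bhlhe41 and -0.40 to 0.0095 for Dbp, and in the interaction from -0.22 to 0.148 for Nfil3 and -0.34 to 0.101 for Dbp. For Ciart at 19 mo, 6 to 19 counts per mouse limit the precision.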
